A study of Mus musculus with 14 samples.

Results

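The 10 genes described here are the 4 inhibitors of DNA binding Id1, Id2, Id3 and Id4, the SMAD genes Smad6, Smad7 and Smad9, the ligand genes Bmp2 and Bmp6, and the decoy receptor gene Bambi, taken by gene symbol from tables of 17656 genes. All 10 were found, under the gene identifiers 15901, 15902, 15903 and 15904 (Id1 to Id4), 17130 (Smad6), 17131 (Smad7), 55994 (Smad9), 12156 (Bmp2), 12161 (Bmp6) and 68010 (Bambi). They were chosen by their place in the bone morphogenetic protein (BMP) pathway and by the values of Id1 in ConA-treated Ythdf1-/- against ConA-treated WT livers, so the members' values in that comparison are a description without a test. The liver RNA of 14 mice, each 8 weeks old, was sequenced. There were 3 WT and 3 Ythdf1-/- (KO) mice given saline and 4 WT and 4 KO mice given concanavalin A (ConA), a plant lectin that activates T cells and causes acute hepatitis, at 8 mg/kg into the tail vein, and livers were taken after 8 h. The KO mice carry a CRISPR/Cas9 deletion of exon 3 of Ythdf1, which encodes a reader of m6A-modified mRNA, in every cell of the body, and the WT mice were littermates on the same C57BL/6 background. The values are TPM, a unit scaled to a fixed sum per library and corrected for gene length, so levels can be set side by side between genes. The number of reads is unknown, and the spread between mice is the only measure of error.

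BMP ligands bind receptor kinases at the cell surface, which phosphorylate SMAD1, SMAD5 and SMAD9. These join SMAD4 and switch on target genes, among them Id1, Id2, Id3, Smad6 and Smad7. SMAD6 and SMAD7 are inhibitory SMADs that shut the pathway off again, and BAMBI is a receptor-like protein without a kinase that interferes with the receptor complexes. In the liver, BMP2 and BMP6 come mainly from sinusoidal endothelial cells and act on hepatocytes, where they drive hepcidin, the hormone of iron balance encoded by Hamp. ID proteins carry a helix-loop-helix but no DNA-binding region, and they hold E proteins such as TCF3 and TCF12 away from DNA.

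The 4 Id genes are close relatives, and the following stretch shows how close. It is the run of 60 bases most alike, without gaps, between their coding sequences (GENCODE vM21, GRCm38, all in exon 1 of the transcript with the longest coding sequence). Capitals mark the 42 bases that all 4 share. The stretches lie at chr2:152736587-152736646 (plus strand, Id1), chr12:25095774-25095833 (minus strand, Id2), chr4:136144071-136144130 (plus strand, Id3) and chr13:48261762-48261821 (plus strand, Id4).
Id1: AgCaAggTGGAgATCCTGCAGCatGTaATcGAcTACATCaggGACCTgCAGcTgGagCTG
Id2: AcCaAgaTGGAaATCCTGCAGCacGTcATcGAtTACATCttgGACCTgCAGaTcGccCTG
Id3: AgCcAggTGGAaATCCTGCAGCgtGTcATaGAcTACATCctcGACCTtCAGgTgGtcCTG
Id4: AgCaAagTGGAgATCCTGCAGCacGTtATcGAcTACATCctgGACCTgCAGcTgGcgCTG
Between pairs, identity in this stretch ran from 78.3% (Id2 and Id3) to 90% (Id1 and Id4). Reads were 50 bases long, and 50-base stretches found in no other gene made up all of the longest coding transcript of Id1, Id3, Smad6, Smad7, Bmp2 and Bambi, 99.1% of Id2, 99.8% of Smad9, 97.9% of Id4 and 95.1% of Bmp6. Exons of Bmp6 overlap Txndc5, and those of Id4 overlap A330033J07Rik and Gm49291, each on the other strand. Whether the counting used strand is not stated, so reads of these overlaps cannot be told apart.

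Promoter sequences, from 250 bases before to 50 bases after the RefSeq start site (GRCm38.p6), were at hand for 6 of the 10 genes, Id2, Id3, Id4, Smad6, Smad9 and Bmp6. The promoters of Id2, Id3 and Smad9 are shown because Id3 and Smad9 changed the most after ConA by the ratio of mean TPM and Id2 was the most abundant member with saline. Capitals mark GGCGCC, a GC-rich element that BMP-activated SMADs bind. It reads the same on both strands.
Id2 promoter, chr12:25096043-25096342, minus strand: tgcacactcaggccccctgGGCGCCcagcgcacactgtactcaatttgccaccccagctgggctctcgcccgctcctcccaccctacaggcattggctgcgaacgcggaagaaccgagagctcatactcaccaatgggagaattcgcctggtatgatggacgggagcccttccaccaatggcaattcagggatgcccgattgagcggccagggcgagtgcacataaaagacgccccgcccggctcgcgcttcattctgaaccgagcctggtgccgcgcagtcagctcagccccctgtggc
Id3 promoter, chr4:136143572-136143871, plus strand: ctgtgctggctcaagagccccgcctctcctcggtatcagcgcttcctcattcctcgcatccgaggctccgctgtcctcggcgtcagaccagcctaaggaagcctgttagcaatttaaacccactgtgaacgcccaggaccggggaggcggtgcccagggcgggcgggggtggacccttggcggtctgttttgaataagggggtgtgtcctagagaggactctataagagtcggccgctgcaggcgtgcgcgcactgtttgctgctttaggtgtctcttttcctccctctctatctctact
Smad9 promoter, chr3:54755332-54755631, plus strand: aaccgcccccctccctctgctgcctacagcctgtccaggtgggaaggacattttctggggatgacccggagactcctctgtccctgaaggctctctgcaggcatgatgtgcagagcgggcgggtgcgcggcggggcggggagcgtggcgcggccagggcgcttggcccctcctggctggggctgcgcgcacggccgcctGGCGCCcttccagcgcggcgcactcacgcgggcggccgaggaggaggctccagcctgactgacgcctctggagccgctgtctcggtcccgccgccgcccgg
GGCGCC was found once each in the windows of Id2, Id4 and Smad9, was not in the windows of Id3, Smad6 and Bmp6, and was found in 11.9% of the 32851 promoters of the same length. Neither CAGACA, which holds a SMAD-binding core (21.0% of promoters), nor TTCNNNGAA, a STAT element (8.30%), nor TGANTCA, an AP-1 element (7.81%), occurred on either strand of the 6 windows, so no match overlapped another. Smad9 holds GGCGCC and Id3 does not, and whether this bears on their changes after ConA was not tested. A match is a description of letters and not a site.

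Some facts of the libraries bear on what follows. The whole-gene level of Ythdf1 was not lower in KO livers: it lay between 12.03 and 13.9 TPM in WT saline, between 18.4 and 20.8 in KO saline, between 18.7 and 25.6 in WT ConA and between 15.5 and 26.2 in KO ConA mice, which leaves the genotype labels unchecked by this gene. With saline, Ythdf1 was called higher in KO than in WT livers by limma (log2 difference 0.53, SE 0.092, adjusted p = 0.0181). Replicates 2 and 3 of WT saline hardly differed. The median size of their log2 ratio over expressed genes was 0.0778, while the remaining 17 replicate pairs had 0.127 to 0.413. Some results against WT saline are also given with both averaged as 1 mouse. These are the Id1 call in WT after ConA and the member and pathway calls in KO saline against WT saline. Replicate 3 of WT ConA and replicate 3 of KO ConA stood apart from their groups. Hepatocyte markers (10 markers, led by Alb, Apoa1 and Ttr) were high in every library but lower after ConA, with a summed TPM of 125478 to 148833 with saline and 62249 to 92970 with ConA. Of the 10, 6 were called lower and 1 higher in WT and 8 lower and 1 higher in KO livers. Kupffer cell markers (8 genes, among them Clec4f, C1qa and C1qb) were called lower after ConA in 7 of 8 in WT, 3 of them genes that passed the filter only through the saline mice, and in 3 of 8 in KO livers, 1 of them such a gene. The part of these shifts in the members' changes after ConA was not tested. T cell markers were low (6 markers, among them Lck, Cd3g and Cd3d, 0.95 to 5.72). The summed TPM of neutrophil markers (8 markers, led by S100a8, S100a9 and Retnlg with ConA) was 5.42 to 11.2 with saline and 320 to 957 with ConA. In each genotype 7 of the 8 were called higher, 6 of them genes that passed the filter only through the ConA mice. Ly6g was not called (log2 difference -1.15 in WT and -0.21 in KO livers). Beside these marker counts, 22% of all genes tested were called higher and 31% lower in WT livers after ConA. In KO livers the shares were 33.9% higher and 30.7% lower.

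In WT saline livers Id2 was the most abundant of the 10 genes with a mean of 110.5 TPM, followed by Id3 (26.5) and Id1 (10.8). Smad6, Smad7, Smad9, Bambi and Bmp2 lay between 1.02 and 2.43 TPM, and in that order the ranges of neighbours overlapped. Bmp6 (0.627 TPM) and Id4 (0.187 TPM) lay below them without overlap. After ConA, Id3 took the first place in both genotypes, with means of 202 TPM in WT and 404 TPM in KO, and Smad9 fell to 1 of the last 2 places.

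**Figure D1:**
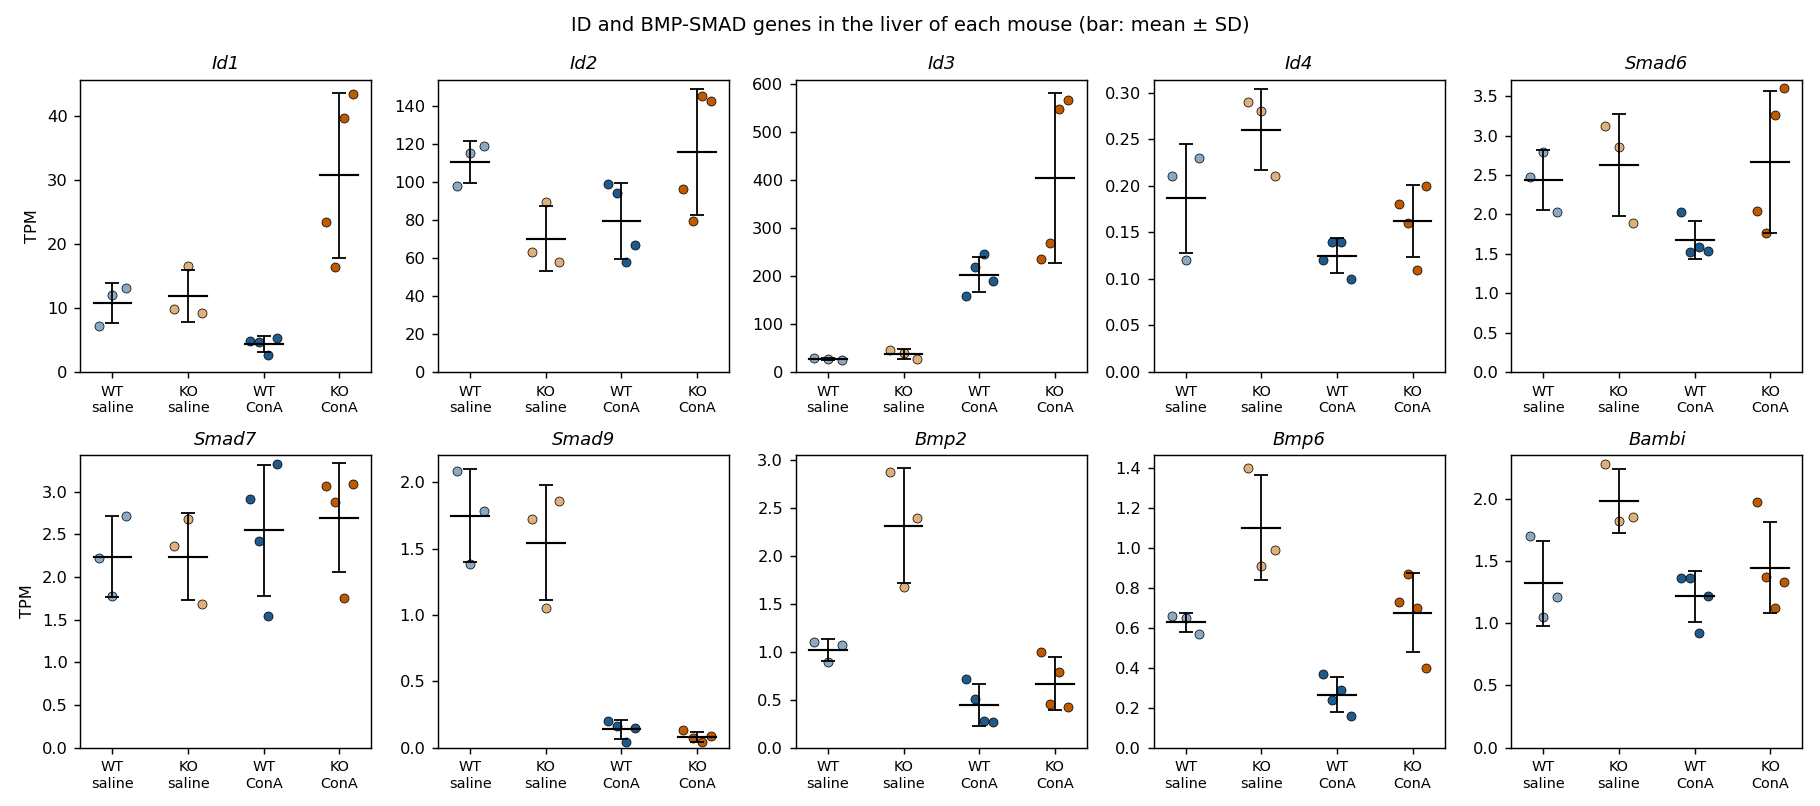
TPM of each of the 10 genes in every mouse (y axis, linear, from 0; each panel has its own scale), by group, with the mean and SD as bars. After ConA, Id1 lies between 2.62 and 5.30 TPM in WT mice and between 16.4 and 43.4 TPM in KO mice, Id3 is higher after ConA in both genotypes, and Smad9 is close to 0 after ConA in both.

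The comparison of ConA with saline within each genotype asks how the pathway stood during acute hepatitis. In WT livers ConA raised Id3 and lowered Id1 and Smad9. In KO livers it raised Id3, Id1 and Id2 and lowered Smad9 and Bmp2. Of the 10 genes, 7 passed the filter on low values in WT (a TPM of at least 1 in at least 3 libraries), and 1 was called higher and 2 lower, while 53% of the 10768 genes tested were called, 22% higher and 31% lower. In KO livers 8 passed, and 3 were called higher and 2 lower, against 64.6% of 10988 genes, 33.9% higher and 30.7% lower. The calls of Smad9 in both genotypes and of Bmp2 in KO livers are of genes that passed only through the saline mice, where they were high, and Id1 was chosen by its values in the ConA mice, so these counts and the medians below are a description and are not read against that background. Differences are of mean log2(TPM + 1) with limma, and a call needed an adjusted p (Benjamini-Hochberg, over all genes tested) under 0.05. This scale understates the change of genes with low TPM. The median over the members tested was -0.36 in WT and 0.09 in KO, beside -0.07 and 0.07 over all genes.

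Id3 encodes the ID protein whose mRNA rose in both genotypes. The 3 WT saline livers had 28.6, 26.4 and 24.4 TPM and the 4 WT ConA livers 159, 217, 245 and 189 TPM. All ConA values lay above all saline values, and the mean was 7.65 times as high (log2 difference 2.87, SE 0.16, adjusted p = 1.57e-06). In KO mice Id3 went from 46.6, 39.3 and 27.1 TPM to 236, 268, 546 and 566 TPM, 10.7 times as high (log2 difference 3.31, SE 0.31, adjusted p = 5.51e-06). The KO ConA mice fell into a lower and an upper pair, and replicates 3 and 4 had more than double the Id3 of replicates 1 and 2. The difference stayed at 2.78 in WT and 3.13 in KO without the ConA replicates 3.

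Id1, the best known BMP target among the ID genes, moved in opposite directions in the 2 genotypes. WT livers had 7.21, 11.96 and 13.1 TPM with saline and 4.89, 4.72, 2.62 and 5.30 TPM with ConA. The WT groups did not overlap, and Id1 fell by 1.12 on the log2 scale (SE 0.25, adjusted p = 0.00446). KO livers had 9.86, 16.5 and 9.17 TPM with saline and 23.5, 16.4, 39.5 and 43.4 TPM with ConA, so that the lowest ConA mouse lay just under the highest saline mouse. Id1 rose by 1.25 on the log2 scale in KO mice (SE 0.32, adjusted p = 0.00501). Both calls were kept without the ConA replicates 3 (-0.94, adjusted p = 0.00431, and 1.10, adjusted p = 0.0164), and the WT call with the near-identical saline mice averaged (-1.0, adjusted p = 0.0248). These 2 tests use the ConA libraries on which the gene was chosen and are not independent of that choice. The difference between the 2 responses, KO minus WT, was 2.37 (SE 0.45) and was not tested.

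Id2 was abundant in every group. WT livers had 97.8, 115 and 119 TPM with saline and 98.7, 93.9, 58.1 and 66.9 TPM with ConA, a log2 difference of -0.50 (SE 0.20, adjusted p = 0.0581) that was not called. The WT groups overlapped by a single pair of mice. Leaving out WT ConA replicate 1 or 2 brought it under the threshold (adjusted p = 0.0298 and 0.0428). KO livers had 63.3, 89.4 and 57.8 TPM with saline and 96.4, 79.3, 145 and 143 TPM with ConA, and Id2 was called higher (log2 difference 0.69, SE 0.23, adjusted p = 0.0194). As for Id1 and Id3, KO ConA replicates 3 and 4 were the highest. The call was lost without KO saline replicate 1 (adjusted p = 0.0651) or 3 (0.0875), without KO ConA replicate 3 (0.0518) or 4 (0.0506), and with rescaled libraries (0.104). The KO minus WT difference of the responses was 1.195 (SE 0.33), again without a test.

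Id4 stayed between 0.10 and 0.29 TPM in all 14 mice and was below the filter everywhere. Its group means ran from 0.125 in WT ConA to 0.260 TPM in KO saline.

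**Figure D2:**
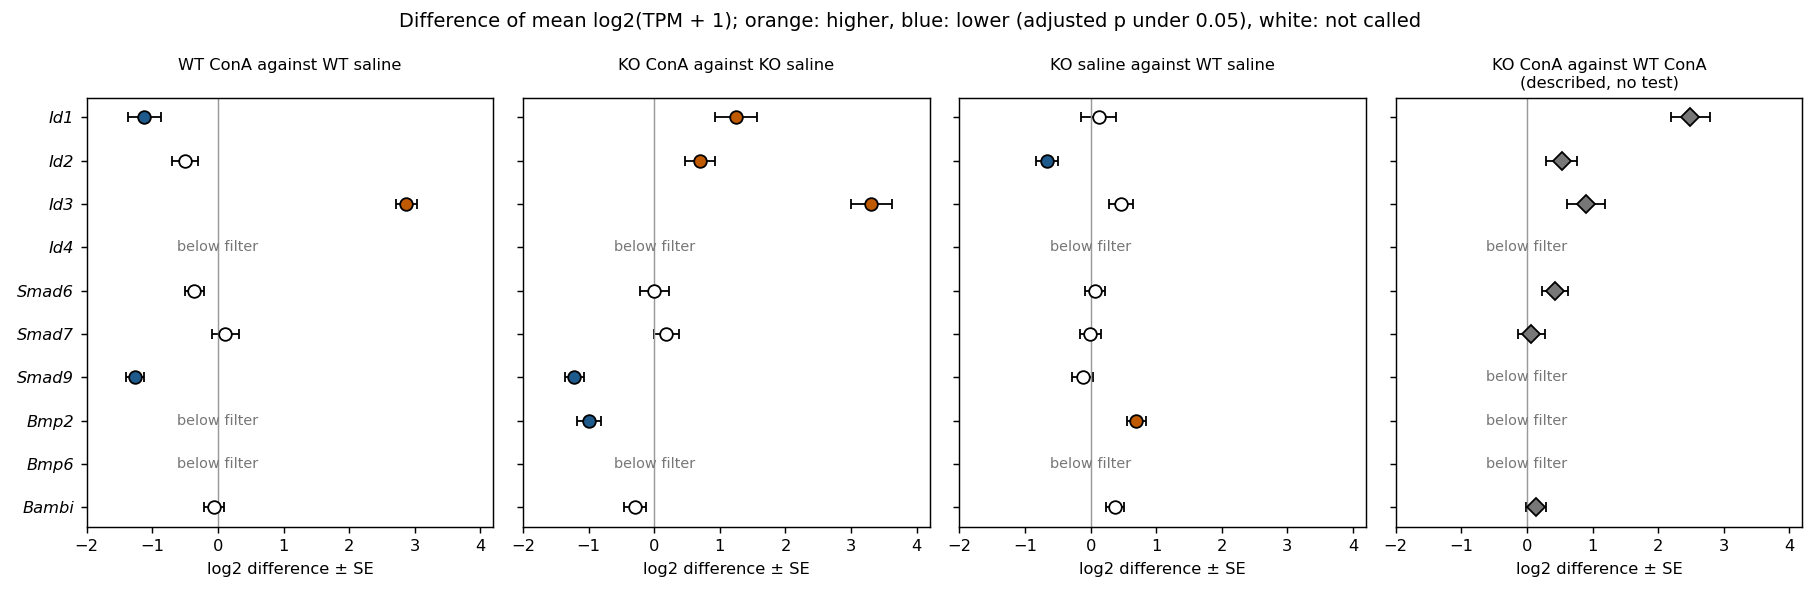
Difference of mean log2(TPM + 1) with its SE (x axis) for each of the 10 genes (y axis) in 4 comparisons, coloured by call at an adjusted p under 0.05, with grey diamonds where no test was made. Id1 lies at -1.12 in WT and at 1.25 in KO mice after ConA, Id3 at 2.87 and 3.31, and Smad9 at -1.27 and -1.22.

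Among the SMADs, Smad9, a receptor-activated SMAD, fell in both genotypes. WT livers had 2.08, 1.38 and 1.78 TPM with saline and 0.20, 0.16, 0.04 and 0.15 TPM with ConA. KO livers had 1.72, 1.05 and 1.86 TPM with saline and 0.13, 0.07, 0.04 and 0.09 TPM with ConA. No ConA mouse came near a saline mouse in either genotype, and the mean fell to 0.0787 of the saline level in WT and to 0.0535 in KO (ratio of mean TPM). The log2 differences were -1.27 (SE 0.13, adjusted p = 5.70e-05) and -1.22 (SE 0.15, adjusted p = 3.69e-05). Smad9 passed the filter only through the saline mice, so it could be tested only because it differed.

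The inhibitory SMADs were not called in either genotype. Smad6 had 2.48, 2.79 and 2.03 TPM in WT saline and 2.03, 1.52, 1.59 and 1.54 TPM in WT ConA livers, a log2 difference of -0.36 (SE 0.14, adjusted p = 0.0573) that was called without WT ConA replicate 1 (adjusted p = 0.0386) or 3 (0.0470). The highest WT ConA mouse equalled the lowest WT saline mouse. In KO livers Smad6 had 3.12, 2.86 and 1.89 TPM with saline and 2.04, 1.76, 3.26 and 3.6 TPM with ConA, with a difference near 0 (95% interval -0.49 to 0.48). KO ConA replicates 3 and 4 again held the 2 highest values. Smad7 ranged from 1.54 to 3.32 TPM over all 14 mice, and its log2 differences were 0.11 in WT (95% interval -0.34 to 0.57, adjusted p = 0.66) and 0.18 in KO (95% interval -0.24 to 0.61, adjusted p = 0.42). The lowest Smad7 values after ConA were those of replicate 3 in both genotypes, 1.54 TPM in WT and 1.75 TPM in KO.

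Of the ligands, Bmp2 had 2.87, 1.68 and 2.39 TPM in KO saline and 1.0, 0.46, 0.79 and 0.42 TPM in KO ConA livers, and the groups did not overlap (log2 difference -0.99, SE 0.18, adjusted p = 6.98e-04). It passed the filter in this comparison only through the saline mice. In WT livers it was below the filter, with 1.10, 0.89 and 1.07 TPM with saline and 0.72, 0.51, 0.28 and 0.27 TPM with ConA. Bmp6 was below the filter in every comparison. It had 0.66, 0.65 and 0.57 TPM in WT saline and 0.37, 0.24, 0.29 and 0.16 TPM in WT ConA livers. In KO livers it had 1.40, 0.91 and 0.99 TPM with saline and 0.73, 0.87, 0.70 and 0.40 TPM with ConA. For both ligands every ConA mouse lay below every saline mouse of its genotype. Without a filter, Bmp2 and Bmp6 were called lower in WT livers as well, and Bmp6 was not called in KO livers. Bambi had 1.70, 1.05 and 1.21 TPM in WT saline, 1.36, 1.36, 0.92 and 1.22 TPM in WT ConA, 2.28, 1.82 and 1.85 TPM in KO saline and 1.97, 1.37, 1.12 and 1.33 TPM in KO ConA livers. Its log2 differences after ConA were -0.06 in WT (SE 0.15, adjusted p = 0.75) and -0.29 in KO (SE 0.16, adjusted p = 0.13), where it was called without KO ConA replicate 1 (adjusted p = 0.0480) and with rescaled libraries (adjusted p = 0.0274).

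The comparison of KO saline with WT saline asks what differed before the challenge. Bmp2 was higher and Id2 lower in KO livers. Of 8 members tested, 1 was called higher and 1 lower, against 19.2% of 10459 genes, 6.3% higher and 12.9% lower. All genes together were shifted by -0.10 in this comparison, and with rescaled libraries 60.7% rather than 32.8% of the called genes were higher. Bmp2 had 1.02 ± 0.114 TPM in WT (SD, n = 3) and 2.31 ± 0.599 TPM in KO livers (SD, n = 3), a log2 difference of 0.70 (SE 0.15, adjusted p = 0.0252). Every KO mouse lay above every WT mouse. Only 2 of the WT mice reached a TPM of 1, so Bmp2 passed the filter here through the KO mice, where it was high. Id2 had 110.5 ± 11.1 TPM in WT and 70.2 ± 16.9 TPM in KO livers (SD, n = 3 each), and fell by 0.67 on the log2 scale (SE 0.17, adjusted p = 0.0361). With the near-identical WT mice averaged, neither was called (adjusted p = 0.102 for Bmp2 and 0.134 for Id2). The Bmp2 call was also lost without WT saline replicate 2 (adjusted p = 0.108) or 3 (0.107) or KO saline replicate 1 (0.0693), and that of Id2 without WT saline replicate 2 (0.131) or 3 (0.144), KO saline replicate 1 (0.10) or 3 (0.0570), and with rescaled libraries (0.0747).

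Bmp6 and Bambi were higher in each KO saline mouse than in each WT saline mouse. Bambi, at a log2 difference of 0.37 (SE 0.13), had an adjusted p of 0.0868, and of 0.0397 without WT saline replicate 1. Id1 (0.12, SE 0.26, adjusted p = 0.76), Smad6, Smad7 and Smad9 (-0.12 to 0.07, adjusted p = 0.62 to 0.99) were not called. Id3 had a log2 difference of 0.46 (SE 0.19, adjusted p = 0.110), which was called without KO saline replicate 3 (adjusted p = 0.0145).

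The markers of the cells that make these ligands were mostly higher in KO than in WT saline livers. After ConA some of them were called lower and some higher in each genotype. Sinusoidal endothelial markers (14 genes, led by Clec4g, Fcgr2b and Ehd3 with saline) summed to 33.3-49.1 TPM in WT saline, 60.1-99.4 TPM in KO saline, 24.0-59.3 TPM in WT ConA and 30.9-77.1 TPM in KO ConA livers. In KO saline against WT saline, 9 of 13 tested were called higher, 2 of which, Tek and Flt4, passed the filter only through the KO mice. In that comparison stellate cell markers (10 genes, led by Dcn, Ecm1 and Colec11) were called higher in 4 of 9, their sums ranging from 35.4 to 139 TPM for WT and from 164 to 262 TPM for KO mice, and 3 of those 4, Lrat, Des and Hand2, passed only through the KO mice. The near-identical WT saline replicates 2 and 3 had endothelial sums of 33.3 and 33.8 TPM, and replicate 1 had 49.1 TPM. Their stellate sums were 35.4 and 36.9 TPM, and replicate 1 had 139 TPM. The marker calls were not repeated with that pair averaged or with rescaled libraries. In KO ConA against KO saline, 9 of 14 endothelial markers were lower, 6 of them genes that passed only through the saline mice, and 3 were higher. Of the endothelial markers that passed through both groups here, 3 were lower, 2 were higher and 2 were not called. In WT ConA against WT saline, where Bmp2 and Bmp6 were lower in every ConA mouse, 5 of 12 endothelial markers were lower, 3 of them passing only through the saline mice. Another 2 were higher and 5 were not called. The endothelial sums of saline and ConA mice overlapped in both genotypes. Over all genes tested, 6.3% were called higher and 12.9% lower in KO saline against WT saline. After ConA, 22% were called higher and 31% lower in WT, and 33.9% higher and 30.7% lower in KO livers. None of either list was at 0 in all mice of a group. The part of these shifts in the Bmp2, Bmp6 and Bambi values was not tested, and in whole liver fewer cells of a type and less RNA per cell cannot be told apart.

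**Figure D3:**
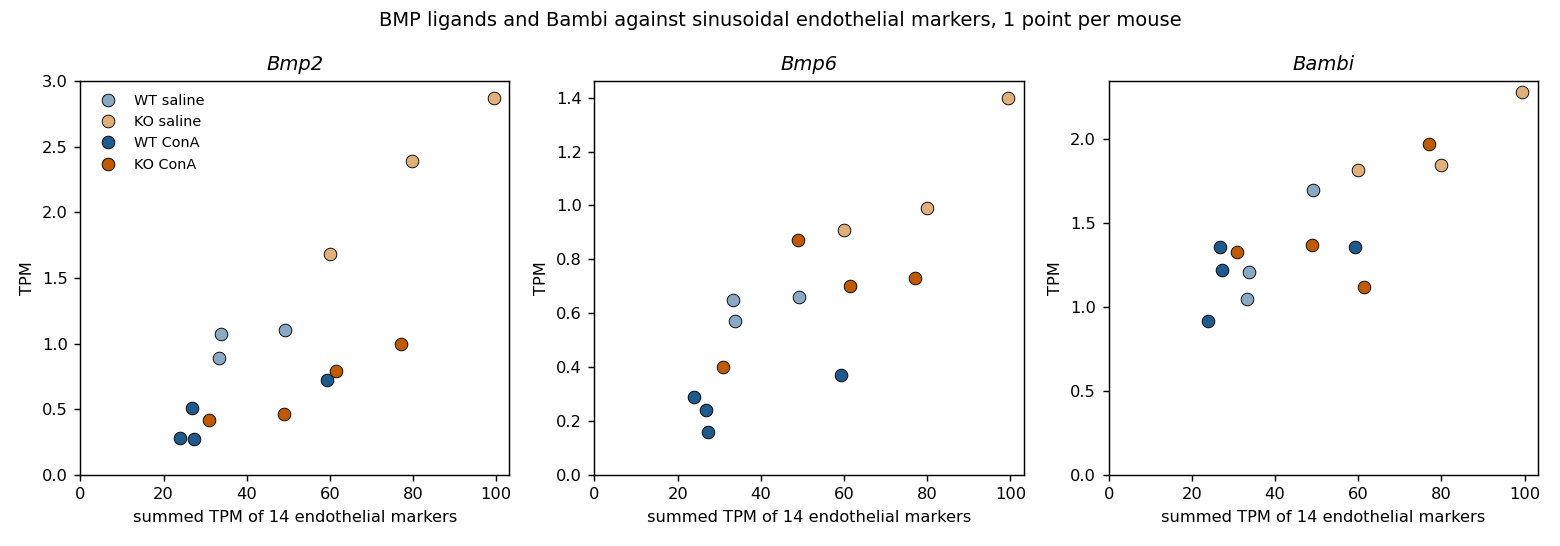
TPM of Bmp2, Bmp6 and Bambi (y axis) against the summed TPM of 14 sinusoidal endothelial markers (x axis), 1 point per mouse, coloured by group. The KO saline mice, at 60.1 to 99.4 on the x axis, hold the 3 highest Bmp2 values, 1.68 to 2.87 TPM, while the KO ConA mice, at 30.9 to 77.1, have 0.42 to 1.0 TPM.

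The pattern of Bmp2 over the 14 mice was most like that of Oit3 (Pearson r = 0.96), itself 1 of the endothelial markers, and Gpihbp1 (r = 0.96), which holds lipoprotein lipase on capillary endothelium. That of Bambi was most like Cav2, a caveolin (r = 0.94), and Calcrl, the receptor of adrenomedullin (r = 0.93). These values are descriptions over 14 libraries in 4 groups, among 11327 genes with a TPM of at least 1 in at least 3 libraries.

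KO ConA against WT ConA is the comparison by whose Id1 values the genes were selected, and it is given as a description. Of 10519 genes tested here, 0.428% were called, 0.342% higher and 0.0856% lower, with 80% of the calls higher, or 60.6% with rescaled libraries. Id1 had 4.38 ± 1.2 TPM in WT ConA and 30.7 ± 12.8 TPM in KO ConA livers (SD, n = 4 each), 7.0 times as much, and a log2 difference of 2.49 (SE 0.30), or 2.16 without the replicates 3. The groups did not overlap. Id3 had 202 ± 36.9 and 404 ± 176 TPM, a log2 difference of 0.90 (SE 0.28), and a single pair of mice overlapped. For Id2 the difference was 0.53 (SE 0.23), or 0.27 without the replicates 3, and for Smad6 0.43 (SE 0.19). Smad7 and Bambi differed by 0.07 (SE 0.21) and 0.14 (SE 0.16). Bmp6, with 0.265 ± 0.0881 TPM in WT and 0.675 ± 0.198 TPM in KO livers, was below the filter but did not overlap between the groups. Of the 6 members that passed the filter, Id1 alone had all KO mice above all WT mice, and none had all KO mice below, beside 6.37% and 4.11% of all genes tested. The rule used this contrast, so nothing is read from that count.

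Within groups, Id1 and Id2 moved together from mouse to mouse (r = 0.87 of deviations from the 4 group means over 14 libraries). Id3 followed Id1 (0.46) and Id2 (0.45) less closely. Smad6 moved with Id1 (0.63), Id2 (0.69) and Id3 (0.77), while Smad7 did not follow Id1 (0.25) or Id3 (-0.30). Both of the near-identical WT saline mice are among the points. Within the KO ConA group, the same replicates 3 and 4 held the 2 highest values of Id1, Id2, Id3 and Smad6. The points share libraries and their normalisation to a fixed sum.

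The genes most like Id1 over the 14 mice were Fam107b (r = 0.92), Sik1, a salt-inducible kinase (0.91), Ccn1, a secreted matricellular protein (0.91), Abhd5, a co-activator of triglyceride lipolysis (0.87), and Spred2, an inhibitor of the RAS-ERK cascade (0.86). In WT ConA livers Ccn1 lay between 4.04 and 5.93 TPM, and the KO ConA livers had 18.2, 9.89, 47.7 and 38.6 TPM, so its KO mice ordered almost as for Id1. Fam107b lay between 10.2 and 28.4 TPM in WT ConA mice and between 41.2 and 76.8 TPM in KO ConA mice. All 5 genes had every KO ConA mouse above every WT ConA mouse, which their choice by likeness to Id1 over these same mice favoured and which is no separate result. Id3 was most like Ube2s, a ubiquitin-conjugating enzyme, and Jund, an AP-1 subunit (both 0.99), and Smad9 was most like Ugt2b5, a glucuronosyltransferase (0.99), and Tbc1d31 (0.99). Id2 was most like Phlda1 (0.82) and the mRNA decay factor Zfp36l1 (0.82), Smad6 was most like St3gal6 (0.77) and Glrx (0.75), and Smad7 was most like Cpsf7 (0.91) and Chmp1b (0.89).

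**Figure D4:**
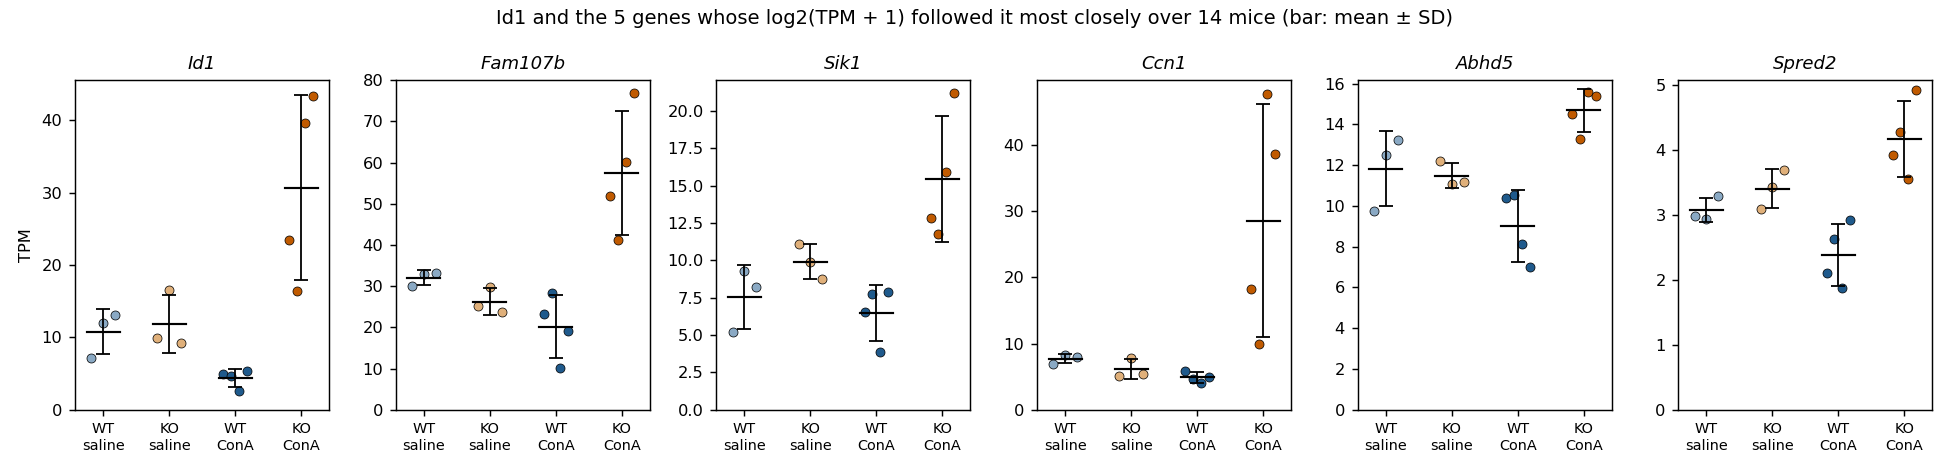
TPM per mouse (y axis, linear, from 0) by group for Id1 and the 5 genes most like it over 14 mice, with the mean and SD as bars. Id1 was chosen by its values in the ConA mice and the others by likeness to it, so the gap between the ConA groups in each panel is a description, with Id1 at 16.4 to 43.4 TPM and Ccn1 at 9.89 to 47.7 TPM in KO ConA mice.

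The rest of the pathway was followed in 78 other genes, namely ligands, antagonists, receptors with co-receptors, SMADs with their regulators, E proteins with Hes and Hey factors, and other targets. After ConA, 14 of the 52 tested in WT livers were called higher and 12 lower, and 19 of 55 higher and 13 lower in KO livers, with medians of -0.05 and 0.19. Over all genes tested, 22% were called higher and 31% lower in WT, and 33.9% higher and 30.7% lower in KO livers. The medians over all genes were -0.07 and 0.07. The counts by role below stand beside these same shares. Of these calls, 6 of the 14 higher and 1 of the 12 lower in WT, and 7 of the 19 higher and 3 of the 13 lower in KO livers, were of genes that passed the filter only through the group where they were high. In KO livers each role held genes that rose and genes that fell. Of the genes named here, Inhbb, Bmper, Fst, Acvrl1 and Skil passed only through the ConA mice in both genotypes, and Bmp5 in KO livers only through the saline mice.

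Among ligands after ConA, 3 of 7 rose and 1 fell in WT, and 3 of 9 rose and 5 fell in KO livers. Gdf15, a stress-induced cytokine, lay between 2.72 and 4.02 TPM with saline. It rose to 32.2-67.4 TPM in WT (log2 difference 3.63, SE 0.25, adjusted p = 5.15e-06) and 72.9-178 TPM in KO livers (4.85, SE 0.25, adjusted p = 8.81e-08). Inhbb, an activin subunit, rose by 1.67 in WT and 2.49 in KO on the log2 scale. Inhbc, another activin subunit, fell by 0.90 in WT and by 1.71 in KO livers. Gdf2, which encodes BMP9, fell by 1.52 in KO livers, from 4.36-5.80 TPM to 0.56-1.68 TPM, and had a difference of -0.43 in WT (adjusted p = 0.298). Bmp5 fell by 1.33 in KO livers and was below the filter in WT. In KO saline against WT saline none of 9 ligands was called by limma, with 4 at an unadjusted p under 0.05, beside 38.8% of all genes tested.

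Among antagonists after ConA, Bmper, which binds BMPs outside the cell, rose by 2.78 in WT and 2.67 in KO (log2), from at most 0.47 TPM to 4.78 TPM or more in every mouse. Fst, the activin antagonist follistatin, had 2.62-11.3 TPM in WT and 15.2-48.1 TPM in KO livers after ConA, against at most 1.13 TPM with saline (log2 differences 1.96 and 3.72, adjusted p = 0.00144 and 3.67e-06). In all, 3 of 8 antagonists rose and 0 fell in WT by limma (3 had an unadjusted p under 0.05, all higher, beside 58.1% of all genes), and 3 rose and 1, Dand5, fell in KO livers. At baseline Twsg1 was lower in KO livers (-0.41, adjusted p = 0.0425).

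Among receptors and co-receptors after ConA, 2 of 14 rose and 4 fell in WT, and 3 of 14 rose and 4 fell in KO livers. Hjv, the hemojuvelin co-receptor that hepatocytes need for BMP signalling to hepcidin, fell from 43.2-59.2 TPM to 5.56-7.96 TPM in WT and 1.81-9.02 TPM in KO livers (log2 differences -2.95 and -3.22, adjusted p = 9.29e-07 and 1.76e-05). Tmprss6, the protease that cleaves hemojuvelin, fell by 1.21 and 0.88. Acvr1b, an activin receptor kinase, rose by 1.79 in WT and 1.95 in KO, and Acvrl1, an endothelial receptor of BMP9, rose by 0.55 and 0.88. At baseline Eng, the endothelial co-receptor endoglin, and Tgfbr3 were higher in KO livers (1.51 and 0.61, adjusted p = 0.0209 and 0.0469), beside the endothelial markers above, and Acvr2a and Acvr2b were lower (-0.45 and -0.42). Tgfbr3 passed the filter in this comparison only through the KO mice and Acvr2b only through the WT mice.

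Among SMADs and their regulators after ConA, 3 of 12 rose and 5 fell in WT, and 6 of 13 rose and 1 fell in KO livers. The corepressor genes Skil and Tgif1 rose in both genotypes, Skil from 0.85-1.38 TPM to 3.21-10.2 TPM in WT and 7.96-13.7 TPM in KO livers (log2 differences 1.89 and 2.54), and Tgif1 by 1.41 and 2.66. Ppm1a, a phosphatase of SMADs, fell by 1.31 and 1.13, and Zfyve9, the SMAD anchor SARA, fell by 0.86 in WT and had a difference of -0.21 in KO livers (adjusted p = 0.372). At baseline Zfyve9 and Smad5 were lower in KO livers (-0.52 and -0.46). Of the E proteins, the partners of ID proteins, Tcf3 fell by 0.53 in WT and by 0.94 in KO after ConA, and Tcf12 rose by 0.82 in KO livers, with 0.26 in WT (adjusted p = 0.473).

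Of the other targets, Atoh8 rose by 1.32 in WT and 1.06 in KO livers after ConA (log2). Hamp lay between 2557 and 3469 TPM in WT saline, between 3038 and 7826 in KO saline, between 4380 and 7236 in WT ConA and between 6321 and 14752 in KO ConA mice. It was called higher in WT after ConA (log2 difference 0.90, SE 0.20, adjusted p = 0.00410) and not in KO (0.76, SE 0.37, adjusted p = 0.0919), and whether the 2 responses differed was not tested. Like Id1, Hamp was highest in KO ConA replicates 3 and 4. Hamp2 was higher in KO saline than WT saline livers (2.02, adjusted p = 0.0200) and fell by 3.17 in KO livers after ConA, with -2.13 in WT (adjusted p = 0.0967). Ccn2, a TGF-beta target, was higher in KO saline livers (1.34, adjusted p = 0.0209), and Ccn1 fell by 0.57 in WT livers (adjusted p = 0.0113) and rose by 1.84 in KO livers (adjusted p = 0.00313) after ConA.

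At baseline 5 of 50 pathway genes were called higher and 7 lower in KO livers, beside 6.3% and 12.9% of all genes tested. The counts were 5 and 3 with rescaled libraries, and 0 were called with the near-identical WT mice averaged. In KO ConA against WT ConA, 0 of 52 pathway genes were called by limma, while 17 had an unadjusted p under 0.05, 14 of them higher in KO livers, beside 16.7% of all genes tested. The median difference was 0.20, beside 0.05 over all genes. With all 14 libraries in the fit 8 were called, and no share over all genes is given for that fit. The members were chosen by the Id1 values of this comparison, and the gene lists with earlier results known. These counts and the median are therefore a description and are not read against those of all genes.

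**Figure D5:**
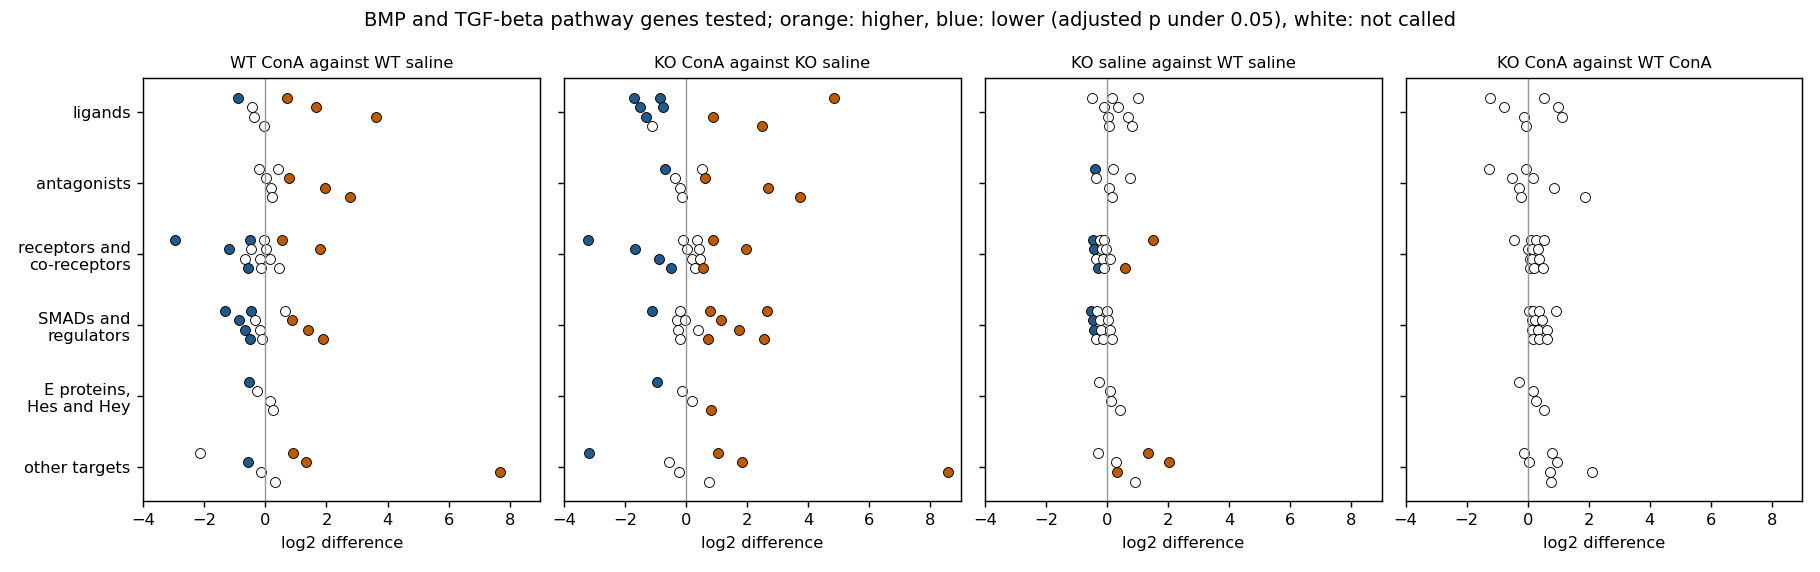
Difference of mean log2(TPM + 1) (x axis) of every tested pathway gene outside the 10 members, by role (y axis; vertical offsets only separate points), in 4 comparisons, coloured by call. After ConA the called genes lie on both sides of 0, and 26 are coloured in WT and 32 in KO mice, while 0 are coloured in KO ConA against WT ConA.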

How the data were processed

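Liver RNA of 14 mice was sequenced, 1 library per mouse, on a BGISEQ-500 with single reads of 50 bases. The authors deposited TPM per gene with 2 decimals, each library summing to 1000000 over the same 17656 genes. The submitters' processing notes name Bowtie2, RSEM 1.3.1 and GRCm38.p6, whereas the study's methods name STAR and HTSeq for RNA-seq, and which of them made these values is not settled. Strandedness and depth are not given in the sources used here.

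Groups came from the sample labels. Each comparison was fitted with the libraries of its 2 groups on log2(TPM + 1) with limma 3.58.1 (lmFit, eBayes with trend; R 4.3.3), over genes whose TPM reached 1 in a number of libraries no smaller than the smaller group. Calls were two-sided and needed a Benjamini-Hochberg adjusted p below 0.05. The members and the gene lists were chosen with earlier results of these data known. Named were all members, Ythdf1, up to 2 called genes per list, comparison and direction with the smallest p, Hamp, the 5 genes most like Id1 and the 2 most like each other member that passed the filter, and the leading markers. The genes of small counts in the closing section were named after their values were seen, and some genes that the rule or a small count would name are not reported here. Of the 84 pathway symbols listed, 78 were in the tables, and 3 of the rest are older names of listed genes.

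Alternative settings used 0.1 as the pseudocount, 5 as the TPM filter or no filter, rescaling of libraries by their median ratio over genes, a fit of all 14 libraries, eBayes with the robust option, a replicate block, the omission of each library in turn, and WT saline replicates 2 and 3 averaged. Leaving out both ConA replicates 3 was added after the data were seen. The fits were tested on simulated data with known changes. Sequences are from RefSeq (GRCm38.p6, promoters) and GENCODE vM21. Scripts used Python 3.11.15 with pandas 2.3.3 and matplotlib 3.10.9.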

Additional observations from a re-analysis of the deposited data

Results flagged for a closer look

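Of the 59 genes looked at (the members, Ythdf1, Hamp and the pathway and most alike genes named by rule), 6 had every WT ConA mouse below the WT saline mean while every KO ConA mouse was above the KO saline mean. The response to ConA of KO minus that of WT was 2.37 for Id1, 1.195 for Id2, 2.41 for Ccn1, 1.80 for Fam107b, 0.692 for Abhd5 and 0.504 for Spred2, on the log2(TPM + 1) scale. These differences between the genotypes were not tested, and Ccn1, Fam107b, Abhd5 and Spred2 are among the genes chosen for their likeness to Id1.

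In groups of 4 mice, a value was marked when its gap to the next divided by the range of the group was over Dixon's 95% critical value for 4 samples. This was the case in 6 of 118 gene and group pairs of these genes, and chance marks about 1 in 20. The ratio was 0.863 for the highest Smad6 of the WT ConA mice (replicate 1, 2.03 TPM) and 0.843 for the lowest Smad7 of the KO ConA mice (replicate 3, 1.75 TPM). Among other pathway genes in WT ConA it was 0.848 for the lowest Acvr2a, 0.896 for the highest Gdf2, 0.855 for the lowest Twsg1 and 0.909 for the lowest Zfyve9. The lowest Acvr2a, Twsg1 and Zfyve9 were all those of WT ConA replicate 3, the library that stood apart.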

How the results depend on the processing

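Of 423 values of the members' log2 differences under alternatives, 378 counted as the same, 18 lost and 11 gained a call, and 16 changed sign. In the tested comparisons the same means that direction and side of the threshold were kept. In KO ConA against WT ConA, which holds 92 of the 378, no test was made. There it means that the direction was kept and the value moved by no more than the within-group SD. In KO saline against WT saline, the 2 members called became 1 with a filter at a TPM of 5 (Id2), and 1 (Bmp2) without a filter, with rescaled libraries and with all 14 libraries. They became 0 with WT saline replicates 2 and 3 averaged and ran from 0 to 3 with each library left out. In WT ConA against WT saline, the 3 called became 5 without a filter and ran from 3 to 5. In KO ConA against KO saline, the 5 called became 3 with a filter at a TPM of 5 and ran from 4 to 6. Of the pathway genes in KO saline against WT saline, the 12 called became 7 with a filter at a TPM of 5, 5 without a filter, 4 with all 14 libraries and 0 with the average, and ran from 0 to 15. In KO ConA against WT ConA, the 0 called became 1 with rescaled libraries, 8 with all 14 libraries and 1 without both replicates 3, and ran from 0 to 1 (Ccn1). With a library left out, pathway calls ran from 20 to 34 in WT and 32 to 37 in KO after ConA.

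Differences that changed sign were near 0. Without both replicates 3, Bambi in WT after ConA came to 0.00517, and Smad7 at baseline to 0.0859 with rescaled libraries. With single libraries left out, Bambi in WT after ConA ran from -0.15 to 0.0525, Smad6 in KO after ConA from -0.16 to 0.12, Smad7 between the ConA groups from -0.0838 to 0.20 and, at baseline, Id1 from -0.12 to 0.27, Smad6 from -0.0337 to 0.22, Smad7 from -0.11 to 0.13 and Smad9 from -0.22 to 0.03015. The cause of these changes was not tested.

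The labels give same-numbered mice no link beyond the number, and whether they share a batch was not tested. The correlations of their deviations ran from -0.19 to 0.15 (WT ConA and WT saline), -0.05 to 0.11 (KO), -0.002 to 0.34 (saline) and -0.007 to 0.41 (ConA). The highest were those of the saline replicates 1 (0.34) and the ConA replicates 3 (0.41). Mice with different numbers reached 0.27 between the saline groups and 0.25 between the ConA groups. With the number as a replicate block, 4 members (Bmp2, Bambi, Id3, Id2) and 21 pathway genes were called in KO saline against WT saline, 4 pathway genes in KO ConA against WT ConA, and the member counts after ConA stayed at 3 and 5. The unknown depth limits the genes under a TPM of 1, above all Id4, Bmp6 and, after ConA, Smad9.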
